A study of Mus musculus with 4 samples.

Results

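Endoderm regulators were followed after RNAi against Zfp322a in E14, a line of mouse embryonic stem (mES) cells. The genes are the transcription factor genes Gata4, Gata6, Foxa1, Foxa2, Sox7, Sox17 and Hnf4a, the receptor gene Pdgfra and the endocytic adaptor gene Dab2. They were chosen by name, with earlier results of these data known, so shares over the whole table stand beside them as description only. Every probe set whose single gene symbol is 1 of these 9 was taken. This gave 22 of the 45037 probe sets in the table (9 of 18193 genes). The data are 4 Affymetrix arrays, 2 of control RNAi and 2 of Zfp322a RNAi. Control RNAi cells carried the pSuper.puro vector with no shRNA named, Zfp322a RNAi cells carried an shRNA plasmid against Zfp322a, and both went through 3 days of puromycin selection according to the labels (a longer time in the study's methods). The labels name no other genotype or agent. Whether arrays of one group come from separate cultures is not stated, and p-values therefore cover only the scatter among these arrays, which may be technical.

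Primitive endoderm is the layer of the blastocyst that forms beside the pluripotent epiblast and later gives rise to visceral and parietal endoderm, whereas definitive endoderm arises from the epiblast at gastrulation. FGF signalling through ERK and the zinc finger factor Gata6 direct inner cell mass cells to primitive endoderm, where Pdgfra, Sox17 and Gata4 also come on. Sox7, Dab2, Foxa1, Foxa2 and Hnf4a mark later primitive endoderm, visceral endoderm or definitive endoderm and its derivatives. In mES cells forced Gata6 or Gata4 is known to convert cells to an extraembryonic endoderm state. Gata6, Pdgfra, Sox17 and Gata4 are called early below, and Sox7, Foxa1, Foxa2, Hnf4a and Dab2 late. Several members have roles outside endoderm, and Gata4, Gata6 and Pdgfra are also mesoderm genes.

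The study designed a pair of shRNAs against Zfp322a, and the sources used here do not say which of them the array samples carried. Their guide strands are shown because they are the agent whose effect is measured. The strand that pairs with Zfp322a mRNA is given 5′ to 3′ with its seed, bases 2 to 8, in capitals.
Zfp322a shRNA-1 guide: tATAATGGagctcctctgt
Zfp322a shRNA-2 guide: tCACACATtcgtgctaagt

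Promoter windows were taken from RefSeq sequence of build GRCm38.p6, from 250 bases before to 50 bases after a transcription start, for the 5 members that matched the table by symbol (Pdgfra, Foxa1, Foxa2, Hnf4a and Dab2, with 9 windows in all). Windows of Gata4, Gata6, Sox7 and Sox17 were not used here. The windows of Foxa1, Pdgfra and Dab2 that hold matches are shown, chosen after the matches were seen, with GATA words (AGATAA or TGATAA, and also AGATAG or TGATAG) and forkhead words (TGTTTAC or TATTTAC) in capitals on either strand.
Foxa1 (chr12:57546062-57546361, minus strand): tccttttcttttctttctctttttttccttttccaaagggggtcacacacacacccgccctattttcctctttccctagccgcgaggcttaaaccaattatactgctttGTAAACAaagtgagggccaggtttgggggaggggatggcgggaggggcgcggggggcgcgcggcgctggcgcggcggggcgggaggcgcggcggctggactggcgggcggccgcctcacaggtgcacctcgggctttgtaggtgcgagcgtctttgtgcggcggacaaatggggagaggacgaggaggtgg
Pdgfra (chr5:75152001-75152300, plus strand): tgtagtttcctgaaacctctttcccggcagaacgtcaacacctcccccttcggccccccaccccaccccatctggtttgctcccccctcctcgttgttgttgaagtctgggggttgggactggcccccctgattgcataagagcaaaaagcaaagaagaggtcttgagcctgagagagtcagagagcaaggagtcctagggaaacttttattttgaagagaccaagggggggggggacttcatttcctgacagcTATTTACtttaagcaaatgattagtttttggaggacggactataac
Dab2, upstream start (chr15:6299539-6299838, plus strand): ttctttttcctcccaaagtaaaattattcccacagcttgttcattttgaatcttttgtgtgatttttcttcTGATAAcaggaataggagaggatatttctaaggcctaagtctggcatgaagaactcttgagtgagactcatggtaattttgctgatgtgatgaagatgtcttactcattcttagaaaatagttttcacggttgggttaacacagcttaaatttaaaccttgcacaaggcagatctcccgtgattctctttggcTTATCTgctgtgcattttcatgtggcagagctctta
The Foxa1 window held 1 forkhead word, 141 bases before the start on the opposite strand, and no GATA word. The Pdgfra window held 1 forkhead word, at base 5 after the start. The upstream Dab2 window held 2 GATA words, and 1 GATA word was also found in a window of Foxa2 and in a window of Hnf4a. In all, 3 of 9 member windows held a GATA word and 2 of 9 a forkhead word, against 29.8% and 6.54% of all 32851 promoter windows of 300 bases. SOX words (ACAATG or ACAAAG) were found in 2 of the 9 windows, 1 of Foxa1 and 1 of Foxa2, against 28.6% of all windows, and 2 of the 4 SOX words of Foxa1 overlap its forkhead word. The HNF4 word CAAAGTCCA was found in 0 of 9 windows and in 0.475% of all windows. A match is a description of letters and not a binding site.

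The arrays were alike in scale, with medians of 6.07 to 6.11 on the log2 scale and Pearson correlations over all probe sets of 0.998 within a group and 0.989 to 0.990 across groups. The targeted gene went with the labels. A probe set of Zfp322a (1439035_at) read 8.75 and 8.84 in control cells and 7.53 and 7.13 in Zfp322a RNAi cells, 36.2% of the control level (log2 change -1.47 ± 0.14, limma adjusted p = 0.00220), and the other (1452374_at) left 27.4%. Pluripotency genes read high, with control means of 9.22 to 12.9 on the log2 scale for the 8 genes of that list. Among them 2 were called lower, as were 11.5% of all genes. Changes below are log2 differences, Zfp322a RNAi minus control RNAi, with the standard error from limma after the sign ± (n = 2 arrays per group), and p-values are adjusted over all 45037 probe sets.

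Endoderm regulators split into genes that rose and genes for which no change was detected. Of the 22 member probe sets, 8 passed an adjusted p of 0.05 with limma and all 8 were higher in Zfp322a RNAi cells, where 10.6% of all probe sets were called higher and 9.47% lower. They belong to 6 genes, Gata6, Pdgfra and Sox17 of the early members and Sox7, Foxa1 and Foxa2 of the late ones. No member was called lower (0 of 22), and no probe set of Gata4, Hnf4a or Dab2 passed the test. At an unadjusted p under 0.05 with limma, 9 member probe sets were higher and 2 lower. In either direction 32.7% of all probe sets passed that limit. By the study's own limit of 1.5-fold, taken with no test, 6 member probe sets were higher and 0 lower, where 4.67% of all probe sets were higher and 2.64% lower. The median change over the 22 probe sets was 0.04, against -0.03 over the whole table.

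**Figure D1:**
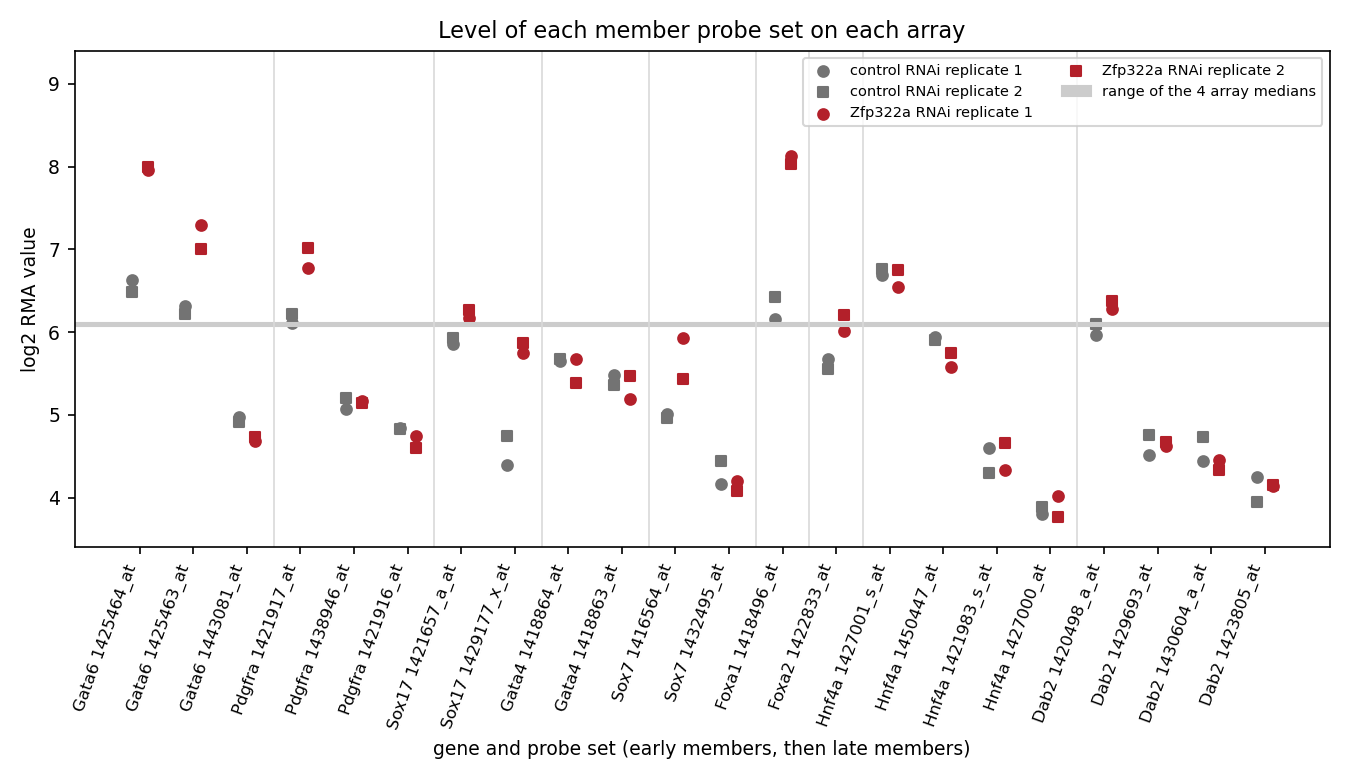
Log2 RMA value (y axis) of the 22 member probe sets (x axis, grouped by gene) on each array, with control RNAi in grey, Zfp322a RNAi in red, replicate 1 as circles and replicate 2 as squares. The grey band marks the array medians, 6.07 to 6.11. Among others, the Zfp322a RNAi arrays stand clear of the control arrays for Foxa1 (8.13 and 8.03 against 6.16 and 6.43) and for 2 probe sets of Gata6. They also do so for the dimmer probe set of Sox17 (5.75 and 5.87 against 4.39 and 4.74).

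Most of these probe sets were dim. Of the 22, 16 had a mean over the 4 arrays under the median of all probe sets (6.09), and 4 of those 16 were called higher, where 3.88% of all probe sets under that median were. Among the other 6 member probe sets 4 were called higher, against 17.3% of all probe sets at or above the median. The mean takes in the Zfp322a RNAi arrays, so a rise helps a probe set to stand on that side. The values hold no detection call, so a low value cannot be told from background here. In bulk RNA, more cells expressing a gene and more RNA of it per cell cannot be told apart.

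Gata6, which encodes the zinc finger factor at the head of the primitive endoderm programme, was up-regulated on 2 of its 3 probe sets. The brightest (1425464_at) read 6.63 and 6.49 in control cells and 7.96 and 8.0 in Zfp322a RNAi cells. Both knock-down arrays stood over a log2 unit above both control arrays, a rise of 1.42 ± 0.09 or 2.68-fold (limma adjusted p = 0.00105), and 112 of the 45037 probe sets rose by more. The second (1425463_at), made from the same source sequence per the platform annotation, read 6.31 and 6.22 in control cells and 7.29 and 7.0 in Zfp322a RNAi cells. It rose 1.84-fold (0.88 ± 0.11, limma adjusted p = 0.00487). The third (1443081_at), from another source sequence, was dim and read lower after RNAi, at 4.97 and 4.92 against 4.68 and 4.73, and did not pass (-0.24 ± 0.08, limma adjusted p = 0.0811). The 3 probe sets of Gata6 therefore gave changes from -0.24 to 1.42, and their mean change was 0.69.

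Gata4, the paralogue that acts beside Gata6 in extraembryonic endoderm and heart, showed no detectable change. Its probe set 1418864_at read 5.65 and 5.67 in control cells and 5.67 and 5.39 in Zfp322a RNAi cells, and 1418863_at read 5.48 and 5.36 against 5.19 and 5.47. The groups overlapped on both probe sets. Their changes were -0.13 ± 0.11 and -0.09 ± 0.11 (limma adjusted p = 0.475 and 0.646), with 95% intervals from -0.40 to 0.14 and from -0.37 to 0.19. Neither interval reaches the log2 value of 0.58 that stands for 1.5-fold, and neither overlaps the interval of Gata6 on 1425464_at, 1.21 to 1.63. The difference between the 2 genes was not tested.

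Sox17, an HMG-box factor of primitive and definitive endoderm, rose on both of its probe sets but by unlike amounts. The brighter (1421657_a_at) read 5.86 and 5.93 in control cells and 6.17 and 6.27 in Zfp322a RNAi cells, a rise of 1.25-fold (0.33 ± 0.08, limma adjusted p = 0.0400). The dimmer (1429177_x_at) read 4.39 and 4.74 against 5.75 and 5.87, a rise of 2.37-fold (1.25 ± 0.13, limma adjusted p = 0.00269). On each of them the knock-down arrays lay above the control arrays. The suffix _x_at marks a probe set that can match other transcripts, so the size of the Sox17 change is uncertain, and the 95% intervals of the 2 probe sets, 0.13 to 0.52 and 0.93 to 1.56, do not overlap. The mean of both was 0.79. With a variance that depends on the level, the brighter probe set no longer passed (limma adjusted p = 0.0503).

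Pdgfra, the receptor tyrosine kinase for PDGF ligands and an early surface mark of primitive endoderm, rose on 1 of 3 probe sets. Probe set 1421917_at read 6.11 and 6.22 in control cells and 6.77 and 7.02 in Zfp322a RNAi cells, 1.66-fold higher (0.73 ± 0.11, limma adjusted p = 0.00720). Its groups did not overlap. The dimmer 1438946_at (5.07 and 5.21 against 5.17 and 5.14) changed by 0.01 ± 0.08 and 1421916_at (4.84 and 4.83 against 4.74 and 4.60) by -0.17 ± 0.08, and neither passed (limma adjusted p = 0.928 and 0.241). The last shares its source sequence with the probe set that rose. Averaging the 3 probe sets left a change of 0.19 that did not pass (limma adjusted p = 0.0770).

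Sox7, an HMG-box factor of the same SOXF group as Sox17, comes on late in primitive endoderm and stays on in parietal endoderm. Its brighter probe set (1416564_at) read 5.01 and 4.96 in control cells and 5.93 and 5.44 in Zfp322a RNAi cells. The control arrays were close together and the knock-down arrays were not, but both of the latter were higher, and the rise was 1.62-fold (0.70 ± 0.16, limma adjusted p = 0.0286). Without Zfp322a RNAi replicate 1 the change was 0.46. The dimmer probe set (1432495_at) read 4.16 and 4.44 against 4.20 and 4.08, overlapped between the groups and changed by -0.16 ± 0.11 (limma adjusted p = 0.399). With the mean of both probe sets the change of 0.27 did not pass (limma adjusted p = 0.130).

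Foxa1, a forkhead pioneer factor of endoderm-derived organs, had the largest change of the 22 probe sets. Its single probe set (1418496_at) read 6.16 and 6.43 in control cells and 8.13 and 8.03 in Zfp322a RNAi cells, so that no array of one group came near the other. The rise was 3.45-fold (1.78 ± 0.11, 95% interval 1.52 to 2.05, limma adjusted p = 0.00107), and 39 probe sets of the table rose by more. Foxa2, the forkhead factor of visceral and definitive endoderm, node and floor plate, also has a single probe set (1422833_at), which read 5.67 and 5.56 in control cells and 6.01 and 6.21 in Zfp322a RNAi cells. It rose less, 1.41-fold (0.49 ± 0.10, 95% interval 0.25 to 0.74, limma adjusted p = 0.0187). The intervals of the 2 forkhead genes do not overlap, though the difference between them was not tested.

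Hnf4a, a nuclear receptor that visceral endoderm and liver depend on, gave no call on any of 4 probe sets. The brightest (1427001_s_at) read 6.69 and 6.76 in control cells and 6.54 and 6.75 in Zfp322a RNAi cells, and the groups overlapped (-0.08 ± 0.10, limma adjusted p = 0.631). On 1450447_at the knock-down arrays lay below the control arrays, at 5.58 and 5.75 against 5.94 and 5.90, but the change of -0.26 ± 0.09 did not pass (limma adjusted p = 0.104). The other probe sets, 1421983_s_at and 1427000_at, overlapped between groups and changed by 0.04 and 0.05. No interval of the 4 reached 1.5-fold in either direction, the highest bound being 0.40.

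Dab2, the adaptor that links cargo receptors of the megalin family to clathrin in visceral endoderm, fell just short of a call. Its brightest probe set (1420498_a_at) read 5.96 and 6.10 in control cells and 6.28 and 6.38 in Zfp322a RNAi cells. The knock-down arrays were both higher, by 0.30 ± 0.09 or 1.23-fold, but the limma adjusted p was 0.0649. This value lay on the other side of the threshold after array centring (0.0487), quantile normalization (0.0473) and with 1 probe set a gene (0.0426). It stayed above the threshold with a variance trend (0.0729) and with a replicate block (0.0912). With low probe sets left out it was 0.0234, but that filter takes the mean over all 4 arrays. The control mean of this probe set, 6.03, lay under the limit of 6.09, so it passed the filter only through its rise and the value is no check. Averaging the 4 Dab2 probe sets left a change of 0.04 (limma adjusted p = 0.684). The other 3 Dab2 probe sets were dim, with control means of 4.10 to 4.64, overlapped between the groups and changed by -0.19 to 0.04 (limma adjusted p from 0.338 to 0.960).

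**Figure D2:**
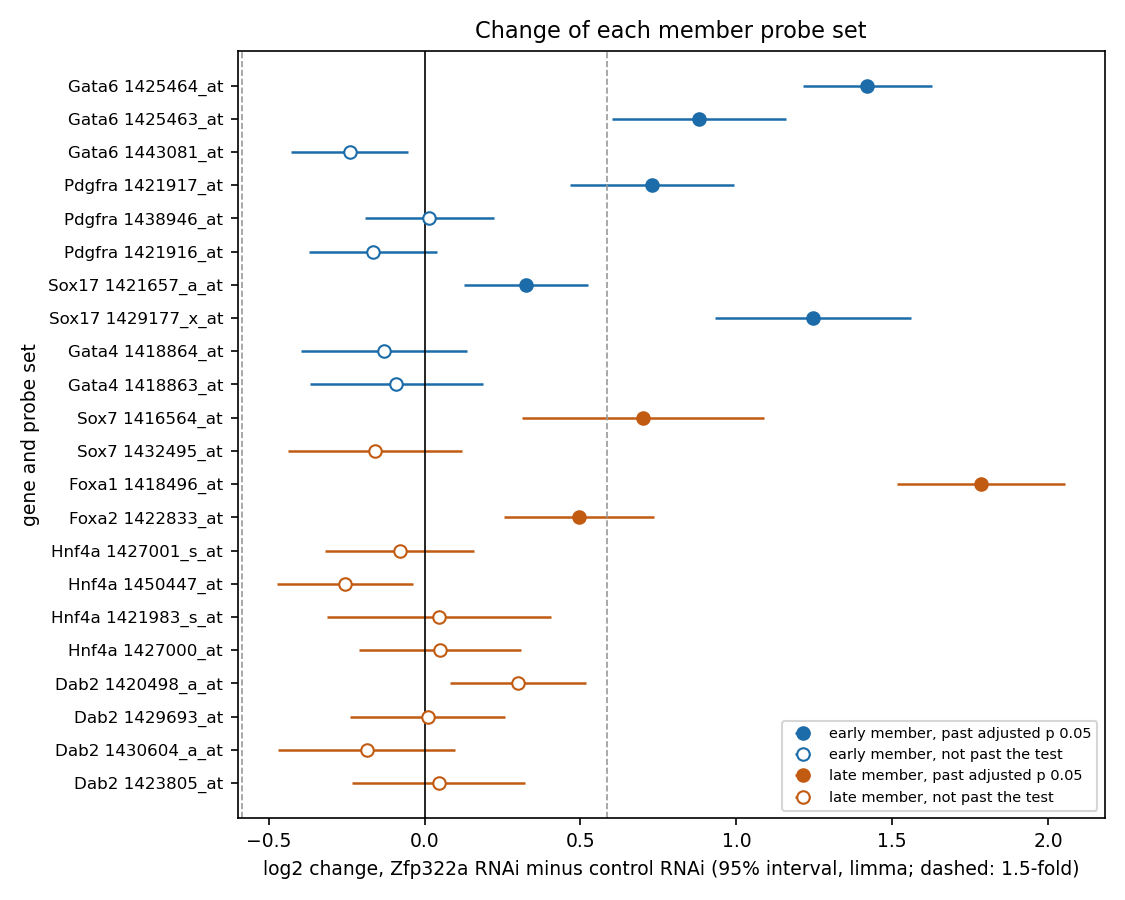
Log2 change, Zfp322a RNAi minus control RNAi (x axis), of each member probe set (y axis) with its 95% interval from limma, blue for early and orange for late members, filled where the adjusted p was under 0.05. The 8 filled points run from 0.33 (Sox17) to 1.78 (Foxa1), and the open points lie between -0.26 and 0.30.

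Calls fell among both early and late members. With each gene at its brightest probe set, 3 of 4 early members (Gata6, Pdgfra, Sox17) and 3 of 5 late members (Foxa1, Sox7, Foxa2) rose, where 12.2% of all genes did. The changes ran from -0.13 (Gata4) to 1.42 (Gata6) among early members, with a median of 0.53, and from -0.08 (Hnf4a) to 1.78 (Foxa1) among late ones, with a median of 0.49. Each stage thus held both a gene that rose by over 1 log2 unit and a gene with no detectable change. Over all probe sets, 5 of 10 early and 3 of 12 late ones were called higher. These are descriptions of 9 chosen genes without a test.

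Calls went different ways within families. Among the SOXF genes, Sox7 and Sox17 were called higher and Sox18 was not (0.04 ± 0.10, limma adjusted p = 0.836). Among the FOXA genes, Foxa1 and Foxa2 rose, and Foxa3 read 6.64 and 6.41 in control cells and 6.05 and 6.16 in Zfp322a RNAi cells and fell by 0.42 ± 0.10 (limma adjusted p = 0.0376). Among the other GATA genes, Gata3, a trophectoderm regulator, rose by 1.09 ± 0.21 (limma adjusted p = 0.0165), from 5.00 and 4.58 to 5.61 and 6.15, while Gata1, Gata2 and Gata5 did not pass. Of the 9 measured genes of other GATA, FOXA, SOXF and HNF family members and GATA cofactors, 1 rose, 1 fell and 7 did not pass, with a median change of -0.19 against -0.04 over all genes, of which 12.2% were called higher and 11.5% lower.

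**Figure D3:**
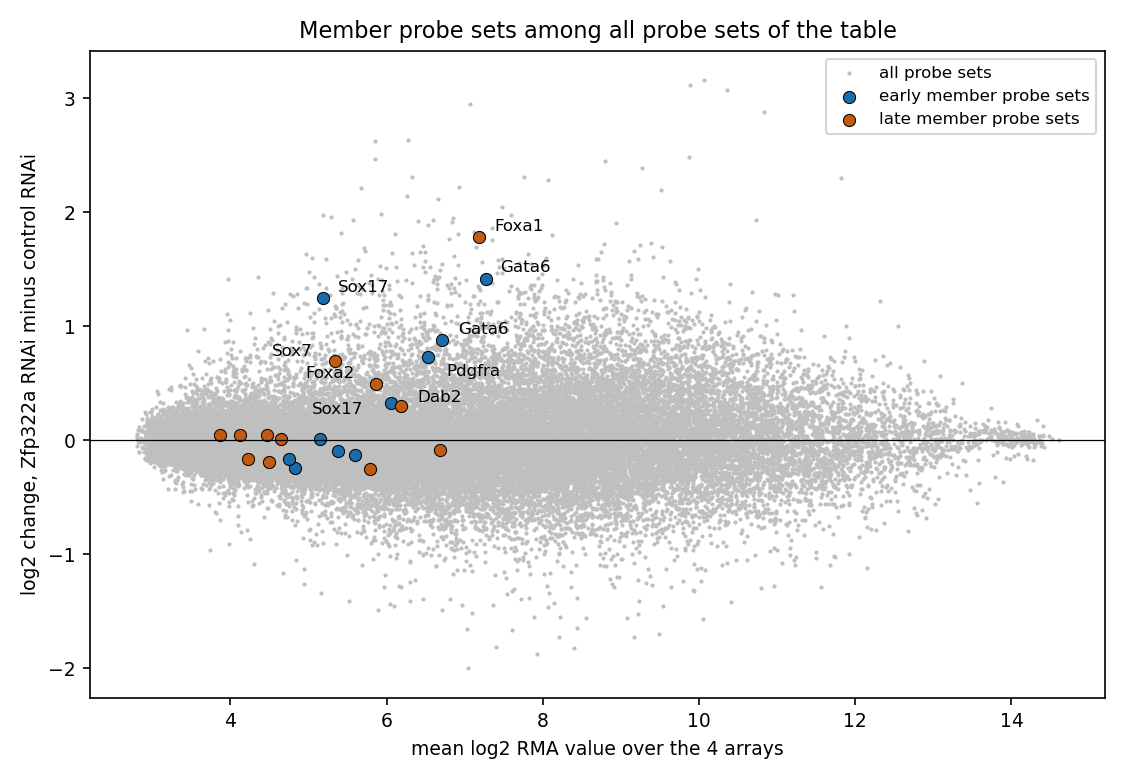
Mean log2 RMA value over the 4 arrays (x axis) and log2 change, Zfp322a RNAi minus control RNAi (y axis), of all 45037 probe sets in grey, with early member probe sets in blue and late ones in orange. The probe sets that were called higher and the brightest of Dab2 are named, from Foxa1 at 1.78 down to Dab2 at 0.30, and the unnamed member points lie between -0.26 and 0.05.

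Of the PDGF ligand genes 1 was called. Pdgfc, which encodes a PDGF ligand that binds Pdgfra, read 8.06 and 8.08 in control cells and 9.51 and 9.44 in Zfp322a RNAi cells and rose 2.65-fold (1.40 ± 0.08, limma adjusted p = 0.00105), and its second probe set rose by 1.36. Pdgfrb, the other PDGF receptor, moved against Pdgfra, from 7.37 and 7.28 to 6.51 and 6.40 (-0.87 ± 0.08, limma adjusted p = 0.00233), while its dimmer probe set did not pass (-0.50 ± 0.17, limma adjusted p = 0.0931). Pdgfa, Pdgfb and Pdgfd did not pass the test. Thus 1 of 5 genes rose, 1 fell and 3 did not pass, where 12.2% of all genes were called higher and 11.5% lower. The median change was -0.05.

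Genes of visceral endoderm, a tissue that takes up and secretes proteins, were read as a list in these mES cells. In it the protease inhibitor gene Spink1 rose 2.52-fold (1.33 ± 0.11), the endocytic receptor gene Lrp2 (megalin) 1.97-fold (0.98 ± 0.13) and its partner Cubn 1.38-fold (0.46 ± 0.09), with limma adjusted p from 0.00174 to 0.0184. Of the 13 visceral endoderm genes measured 3 rose, 0 fell (0 also at an unadjusted p under 0.05 with limma) and 10 did not pass. By comparison, 12.2% of all genes were called higher and 11.5% lower, and the median change of the list was 0.08. The secreted proteins that define the tissue did not pass, among them Afp (-0.16 ± 0.09), Ttr (-0.15 ± 0.09) and Apoa1 (0.14 ± 0.11), with limma adjusted p from 0.274 to 0.433. The call of Cubn ended with the mean of its probe sets (0.19, limma adjusted p = 0.0988), and that of Lrp2 held at a lower value (0.54). Trf was not analysed here.

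In the parietal and primitive endoderm list, the collagen chaperone gene Serpinh1 (0.96 ± 0.10), the proteoglycan gene Srgn (0.79 ± 0.11) and the transcriptional cofactor gene Cited1 (0.70 ± 0.08) rose (limma adjusted p from 0.00239 to 0.00562). The Serpinh1 value is from a probe set with the suffix _x_at, and its other probe set rose by 1.58, so the size of that change is uncertain. The basement membrane genes that parietal endoderm makes in bulk did not pass. Sparc stood at -0.07 ± 0.09, Lamb1 at -0.01 ± 0.09, Lamc1 at 0.05 ± 0.08, Col4a1 at -0.22 ± 0.08, Nid1 at -0.22 ± 0.09, Nid2 at -0.19 ± 0.07 and Lama1 at -0.34 ± 0.10 (limma adjusted p from 0.0656 to 0.934). The coagulation inhibitor gene Tfpi fell by 0.27 ± 0.07 (limma adjusted p = 0.0490), but a dimmer probe set of it rose by 0.78, with array centring the call ended (0.0743), and the mean of its probe sets was 0.06. Of 16 genes, 3 rose, 1 fell and 12 did not pass, where 12.2% of all genes were called higher and 11.5% lower. At an unadjusted p under 0.05 with limma, 3 were higher and 5 lower. Of all probe sets, which unlike the list are not taken by gene, 32.7% passed that limit in either direction. The median change was -0.09.

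Of 16 genes of definitive endoderm and its specification, 2 rose and 4 fell, where 12.2% of all genes were called higher and 11.5% lower. The T-box gene Eomes, which starts definitive endoderm at gastrulation, fell by 0.90 ± 0.08, from 8.23 and 8.23 to 7.28 and 7.38 (limma adjusted p = 0.00190), and so did its second probe set. The Nodal co-receptor gene Tdgf1 (-0.59 ± 0.08), the repressor gene Prdm1 (-0.42 ± 0.09) and the adhesion gene Epcam (-0.34 ± 0.08) fell too (limma adjusted p from 0.00464 to 0.0290). Smad2, a transducer of Nodal signals, rose by 0.53 ± 0.09 on its brightest probe set (limma adjusted p = 0.00959) and fell by 0.34 on another, so that the mean of its probe sets did not pass (0.10, limma adjusted p = 0.318). Nodal itself was called higher (0.31 ± 0.08, limma adjusted p = 0.0450) and was named after its value was seen. The other 10 did not pass, with Cer1, Gsc, Mixl1, Lhx1 and Cxcr4 among them, and the median change of the list was -0.01.

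FGF and ERK input genes went both ways. Fgfr2, the receptor that primitive endoderm precursors carry (0.35 ± 0.07), the exchange factor gene Sos1 (0.42 ± 0.08) and the feedback inhibitor gene Spry2 (0.46 ± 0.07) rose and the ERK-responsive gene Etv4 fell (-1.04 ± 0.08), with limma adjusted p from 0.00147 to 0.0242. The calls of Fgfr2 and Sos1 ended with the mean of their probe sets, and that of Sos1 turned (-0.08), as a dim probe set of it fell by 0.65. Fgf4, the ligand that epiblast cells make, did not pass (-0.24 ± 0.09, limma adjusted p = 0.113). Of 10 genes, 3 rose, 1 fell and 6 did not pass, where 12.2% of all genes were called higher and 11.5% lower. The median change was -0.05.

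Of the 14 measured genes that work with Dab2 in endocytosis, 4 rose, 2 fell and 8 did not pass, with a median change of 0.03. By comparison, 12.2% of all genes were called higher and 11.5% lower. Beside Lrp2 and Cubn, the lipoprotein receptor gene Vldlr (0.88 ± 0.07) and the clathrin adaptor partner gene Eps15 (0.36 ± 0.08) rose and the clathrin light chain gene Cltb fell (-0.33 ± 0.08), with limma adjusted p from 0.00177 to 0.0375. Myo6, a motor that Dab2 recruits, also fell (-0.31 ± 0.08, limma adjusted p = 0.0411) and was named after its value was seen. The call of Cltb ended with array centring (0.0512), those of Eps15 and Cltb ended when all probe sets of a gene were averaged, and the rise of Vldlr was then 0.55. The brightest Vldlr probe set has the suffix _x_at and can match other transcripts, so the size of its change is uncertain.

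**Figure D4:**
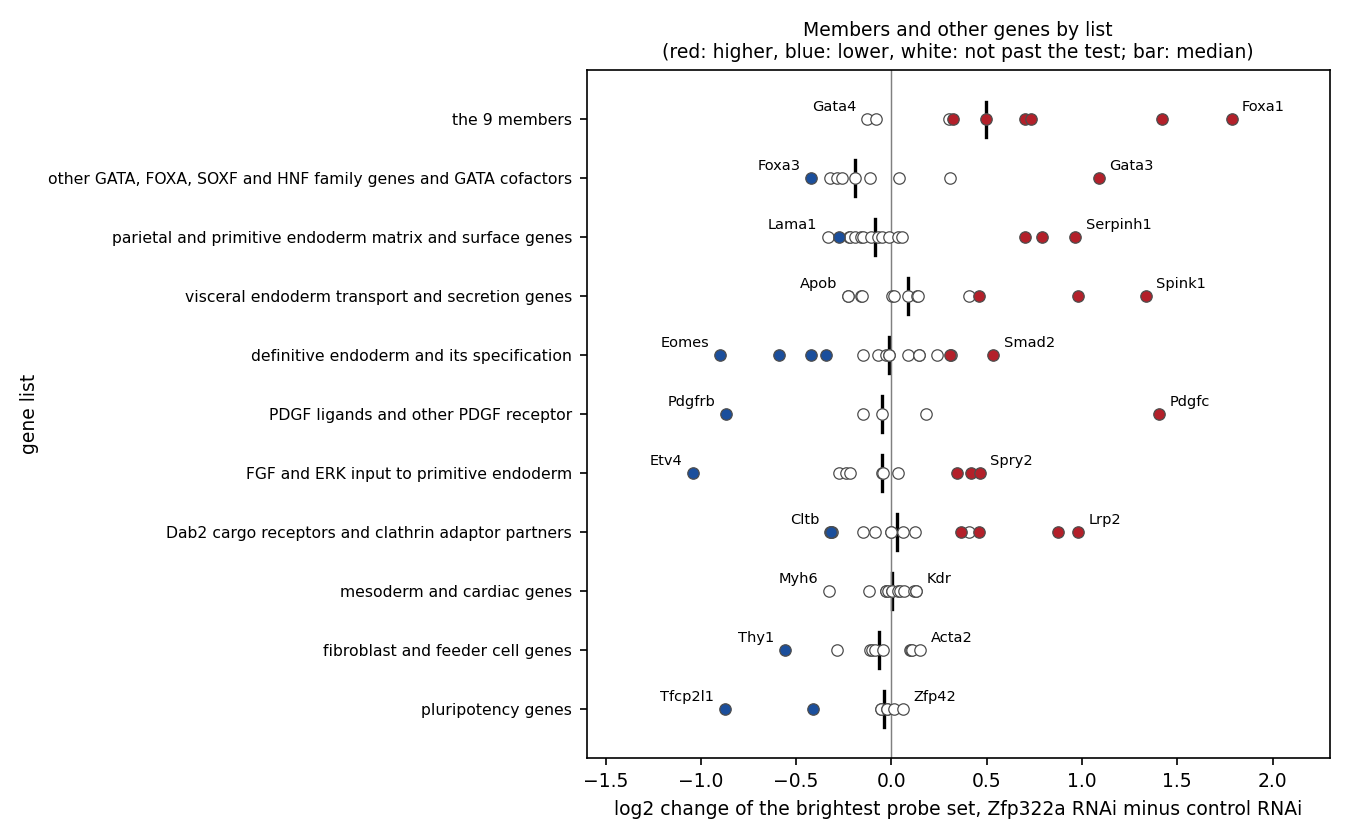
Log2 change of the brightest probe set of each gene, Zfp322a RNAi minus control RNAi (x axis), for the 9 members and the 10 gene lists (y axis), red where called higher, blue where called lower and white where not past the test, with the median as a bar. The members have a median of 0.49, and the medians of the lists run from -0.19 to 0.08.

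Markers of other cell types were read beside these results, where 12.2% of all genes were called higher and 11.5% lower. Of 13 mesoderm and cardiac genes, 0 passed the adjusted p with limma in either direction and 1, Myh6, had an unadjusted p under 0.05, on the lower side. The mesoderm gene T was not analysed here. The summed level of that list lay at 9.93 to 9.99 on the log2 scale in control cells and at 9.93 to 10.1 in Zfp322a RNAi cells. Of 10 fibroblast and feeder cell genes 0 rose (0 also at an unadjusted p under 0.05 with limma) and 1, Thy1, fell (-0.56 ± 0.12, limma adjusted p = 0.0227). Their summed level was 9.05 to 9.06 in control cells and 8.86 to 8.97 in Zfp322a RNAi cells. Of the 8 pluripotency genes, Tfcp2l1 (-0.88 ± 0.07) and Esrrb (-0.41 ± 0.07) fell, and Pou5f1, Nanog, Sox2, Zfp42, Klf4 and Prdm14 did not pass. The mean over the probe sets of Tfcp2l1 was lower in size (-0.41). Its other probe sets were dim, with control means of 3.615 and 3.575 against 11.61 for the brightest. The summed level of the pluripotency list was 15.2 in control cells and 15.1 in Zfp322a RNAi cells on the log2 scale.

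The genes whose pattern lay closest to Gata6 were the p53 target Eda2r, the carbonic anhydrase gene Car2, the arrestin-domain gene Arrdc3, Fndc3a and the stress-response gene Nupr1. Likeness was the Euclidean distance over 4 arrays of log2 values, each minus the control mean, and lay at 0.0224 for Eda2r and 0.137 for Nupr1. Their changes ran from 1.37 (Car2) to 1.5 (Fndc3a). With 4 arrays in 2 groups this measure finds mainly genes with a change of the same size, and no other member was among them.

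Without any 1 of the 4 arrays, 0 member probe sets passed the adjusted p with limma, as did 0 of all probe sets. Each such fit leaves 1 array in a group, so the sizes of the changes are read here. On the brightest probe set of each gene, the changes of Gata6 lay between 1.35 and 1.49 and those of Foxa1 between 1.65 and 1.92. Those of Pdgfra lay between 0.61 and 0.85, of Foxa2 between 0.40 and 0.59 and of Sox17 between 0.28 and 0.38. Those of Sox7 lay between 0.455 and 0.945. The knock-down arrays did not overlap the control arrays for 9 member probe sets that were higher and 3 that were lower, where 25.1% and 32.4% of all probe sets did so.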

How the data were processed

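Total RNA of the 4 samples was hybridised to Affymetrix mouse arrays, 1 per sample. The authors made the deposited log2 values with RMA (version not given in the sources used here), which corrects background, normalizes quantiles between arrays and summarises each probe set. The values were used as deposited. Quantile normalization would hide a shift of all genes, and the number of arrays limits the precision.

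Of 45037 probe sets, 34945 had 1 symbol in the platform annotation, 932 several and 9160 none, and only the first were named. Symbols were updated by Entrez ID in the RefSeq table of GRCm38.p6, which matched 34741 of them. The members and gene lists were chosen with earlier results of these data known.

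limma 3.58.1 (R 4.3.3) was fitted on all probe sets with no term but the group (2 residual degrees of freedom, two-sided) and Benjamini-Hochberg adjustment over the table and a threshold of 0.05. The brightest probe set stood for each gene of the 10 lists named in the report. The text names the members, Zfp322a, up to 5 called genes of each list with the largest changes, the 5 genes closest to Gata6, and genes of a list that did not pass, picked for their role. Alternatives were array centring, quantile normalization, a filter on low values, a variance trend, a replicate block, leaving out an array, leaving out probe sets open to several transcripts, 1 probe set or the mean of all per gene, and the 1.5-fold rule. Shares of calls on either side of the median level were added after the data were seen. The fit was tested on simulated data.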

Additional observations from a re-analysis of the deposited data

How the results depend on the processing

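Precision is limited by 2 arrays per group, and leaving out an array leaves 1 array that is assumed to vary like the others. Without any 1 array, and with limma throughout, the number of member probe sets called in either direction was 0 at its lowest and 0 at its highest, as it was for member genes, listed genes and all probe sets, against 8, 6, 28 and 9040 with all arrays, and the change of Zfp322a lay between -1.67 and -1.26. Whether the replicate numbers pair arrays across the groups is not known here. The correlation of deviations between same-numbered arrays was 0.0561, which cannot decide this with 2 arrays per group. A replicate block leaves fewer residual degrees of freedom. With it 0 member probe sets, 0 member genes, 0 listed genes and 0 of all probe sets passed. Zfp322a was then at -1.47 (limma adjusted p = 0.0523), and Gata6 and Foxa1 were both at a limma adjusted p of 0.0513. With low values left out 5 member probe sets were called, of the 6 that were then tested, against 10242 of all 22530 then tested. The 5 take in the brightest of Dab2, which passed that filter only through its rise. Listed genes called were 13 of 111 at the 1.5-fold rule, against 28 of 111 in the main fit. With probe sets open to several transcripts left out they were 17 of the 81 then tested. Across all genes, 5163 of 18193 were called with 1 probe set a gene and 4852 after averaging the probe sets of each, and 3294 probe sets passed the 1.5-fold rule. No change of a member that was called reversed its direction under these alternatives.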
